A study of Mus musculus with 14 samples.

Results

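The genes described here are a set of 40 that carry out or control mitosis, measured in mouse blood progenitors with and without the enzyme Tet2. They were listed by symbol, and all 40 were found among the 18194 genes measured. Each gene was read from 1 probe set, the one with the highest mean over the arrays. The values are RMA intensities, a linear measure of hybridisation in which background is corrected and arrays are brought to a common scale, and the differences below are between log2 intensities.

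Mitosis begins when Cdk1, bound to A- and B-type cyclins, drives a cell out of G2. Kinases of the Aurora and Polo families then build the spindle, kinesins and microtubule-binding proteins shape it, and kinetochores attach the chromosomes to it. A checkpoint holds the anaphase-promoting complex in check until all chromosomes are attached. The complex then marks cyclin B and securin for destruction, the sister chromatids part and the cell divides. Most of these genes are transcribed late in the cycle, so their RNA is commonly read as a sign of dividing cells. Blood stem cells divide rarely, whereas committed myeloid progenitors divide often.

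The samples were 14 Affymetrix Mouse 430 2.0 arrays in 7 groups of 2, from mice of the B6/129 background. WT mice were Tet2+/+ and KO mice were littermates lacking Tet2, and both genotypes were labelled Mx+ and received pIC for deletion. The Mx1-Cre transgene is switched on by pIC, a mimic of viral RNA, in blood and in other tissues. LSK, the Lin- c-Kit+ Sca1+ fraction that includes the stem cells, and CMP, the common myeloid progenitors with CD34 and low Fc gamma receptor, were sorted 4 weeks after deletion. GMP, the granulocyte-macrophage progenitors, have high Fc gamma receptor, and the labels give no time for them. The last group held KO cells that began as sorted CD150+ LSK cells and were replated 5 times in culture, with no replated WT group analysed here. Whether paired arrays of a group derive from different mice is not stated, and a p-value here covers the spread of these arrays, which may be technical.

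Some features of the arrays bear on every comparison below. The 2 arrays of a group correlated at 0.9613 to 0.9929 (Pearson, log2 values across all probe sets), lowest in the LSK groups. The probe set chosen for Tet2 read 454 to 2040 in WT and 855 to 2380 in sorted KO cells, and no KO minus WT difference of it passed (adjusted p = 0.406 or higher). Where the Tet2 probe sets lie relative to the deleted part was not analysed here, so they do not check the labels. Xist, expressed from the inactive X chromosome, averaged 5010 to 6590 in the sorted KO groups but 21.3 to 28.1 in the WT groups and 20.1 in replated cells. The Y-linked gene Eif2s3y averaged 7.29 to 11.2 in sorted KO cells, 894 to 1160 in WT cells and 2070 in replated cells. Sex therefore cannot be told apart from genotype in the sorted cells, or from replating in the KO cells.

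The region just upstream of the start was read for 34 of the 40 genes from RefSeq (GRCm38.p6), because late cell cycle genes are known for a pair of promoter elements. These are the CCAAT box, which NF-Y binds, and the cell cycle genes homology region (CHR), bound by the DREAM and MuvB complexes. Windows of 250 bases before to 50 after the start were searched on both strands. No window was given for Aurkb, Ccna2, Kif20a, Tpx2, Incenp and Foxm1. Each line below holds the 120 bases before the start, 5′ to 3′ on the gene's own strand, with CCAAT or its complement ATTGG and the CHR letters TTTGAA or their complement TTCAAA in capitals. The first 6 were chosen to show the pair in genes from different steps of mitosis, and the last 3 to show members in whose stretch neither was found.
Cdk1 (chr10:69352913-69353032, minus strand): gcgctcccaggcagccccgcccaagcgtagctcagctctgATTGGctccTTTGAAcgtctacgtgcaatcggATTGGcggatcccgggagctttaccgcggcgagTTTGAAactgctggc
Cdc20 (chr4:118437344-118437463, minus strand): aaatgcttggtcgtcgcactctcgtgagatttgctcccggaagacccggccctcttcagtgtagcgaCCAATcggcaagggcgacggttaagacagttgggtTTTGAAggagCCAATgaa
Top2a (chr11:99024190-99024309, minus strand): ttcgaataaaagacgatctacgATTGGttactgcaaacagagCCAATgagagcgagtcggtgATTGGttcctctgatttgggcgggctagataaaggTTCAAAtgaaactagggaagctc
Ube2c (chr2:164769809-164769928, plus strand): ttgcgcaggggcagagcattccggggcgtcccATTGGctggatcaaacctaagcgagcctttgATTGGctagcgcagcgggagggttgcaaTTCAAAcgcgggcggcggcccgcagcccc
Kif11 (chr19:37376262-37376381, plus strand): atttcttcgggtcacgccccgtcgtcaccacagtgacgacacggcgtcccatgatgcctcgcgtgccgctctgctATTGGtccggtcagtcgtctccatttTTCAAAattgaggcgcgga
Espl1 (chr15:102296173-102296292, plus strand): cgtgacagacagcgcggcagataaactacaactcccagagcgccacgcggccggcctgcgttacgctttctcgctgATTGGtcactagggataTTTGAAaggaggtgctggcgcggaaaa
Birc5 (chr11:117849117-117849236, plus strand): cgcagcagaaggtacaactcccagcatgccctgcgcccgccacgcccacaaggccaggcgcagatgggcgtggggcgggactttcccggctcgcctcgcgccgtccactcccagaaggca
Mad2l1 (chr6:66535101-66535220, plus strand): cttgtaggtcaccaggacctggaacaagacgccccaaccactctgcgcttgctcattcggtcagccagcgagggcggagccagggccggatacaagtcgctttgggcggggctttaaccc
Nuf2 (chr1:169531465-169531584, minus strand): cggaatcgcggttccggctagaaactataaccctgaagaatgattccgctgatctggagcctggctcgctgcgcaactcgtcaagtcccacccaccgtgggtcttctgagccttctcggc

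The letters TTTGAA stood in the windows of 26 of the 34 genes (76.5%), against 20.2% of the 27025 genes with a window. CCAAT stood in 25 (73.5%, against 41.1% of genes), and both stood in 23 (67.6%, against 7.97%). The related letters TTTAAA, which read the same on both strands, stood in 8 (23.5%, against 14.9%). Near the start the difference was wider: TTTGAA lay between 60 bases before and 50 after it in 24 of the 34 genes (70.6%, against 6.36%), limits set after the positions were seen. A CCAAT began 25 to 45 bases before a TTTGAA in 14 of the 34 genes (41.2%), limits also set after the positions were seen. The share of all genes with this spacing was not counted, so nothing stands beside the 41.2%. The CCAAT began 35 bases before in Cdc20 and Top2a and 33 in Cdk1 for the TTTGAA nearer the start, but 17 in Espl1 and 102 in Cenpa. The 8 genes whose windows hold no TTTGAA were Birc5, Bub1, Mad2l1, Nek2, Nuf2, Nusap1, Plk4 and Pttg1. A match is a description of letters, not of a bound site.

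All 40 genes lay above the background level on every array, taken as the highest of 27 bacterial control probe sets (20.8 to 27.8). The median intensity of the 40 genes was between 602 and 946 on the 12 arrays of sorted cells and was 458 and 454 on the arrays of replated cells. Both replated arrays thus lay below all sorted arrays in this summary. Single genes were less orderly. The root mean square SD of the members within a group was 0.46 in WT LSK and 0.54 in KO LSK on the log2 scale, 0.23 to 0.42 in CMP and GMP and 0.16 in replated cells.

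**Figure D1:**
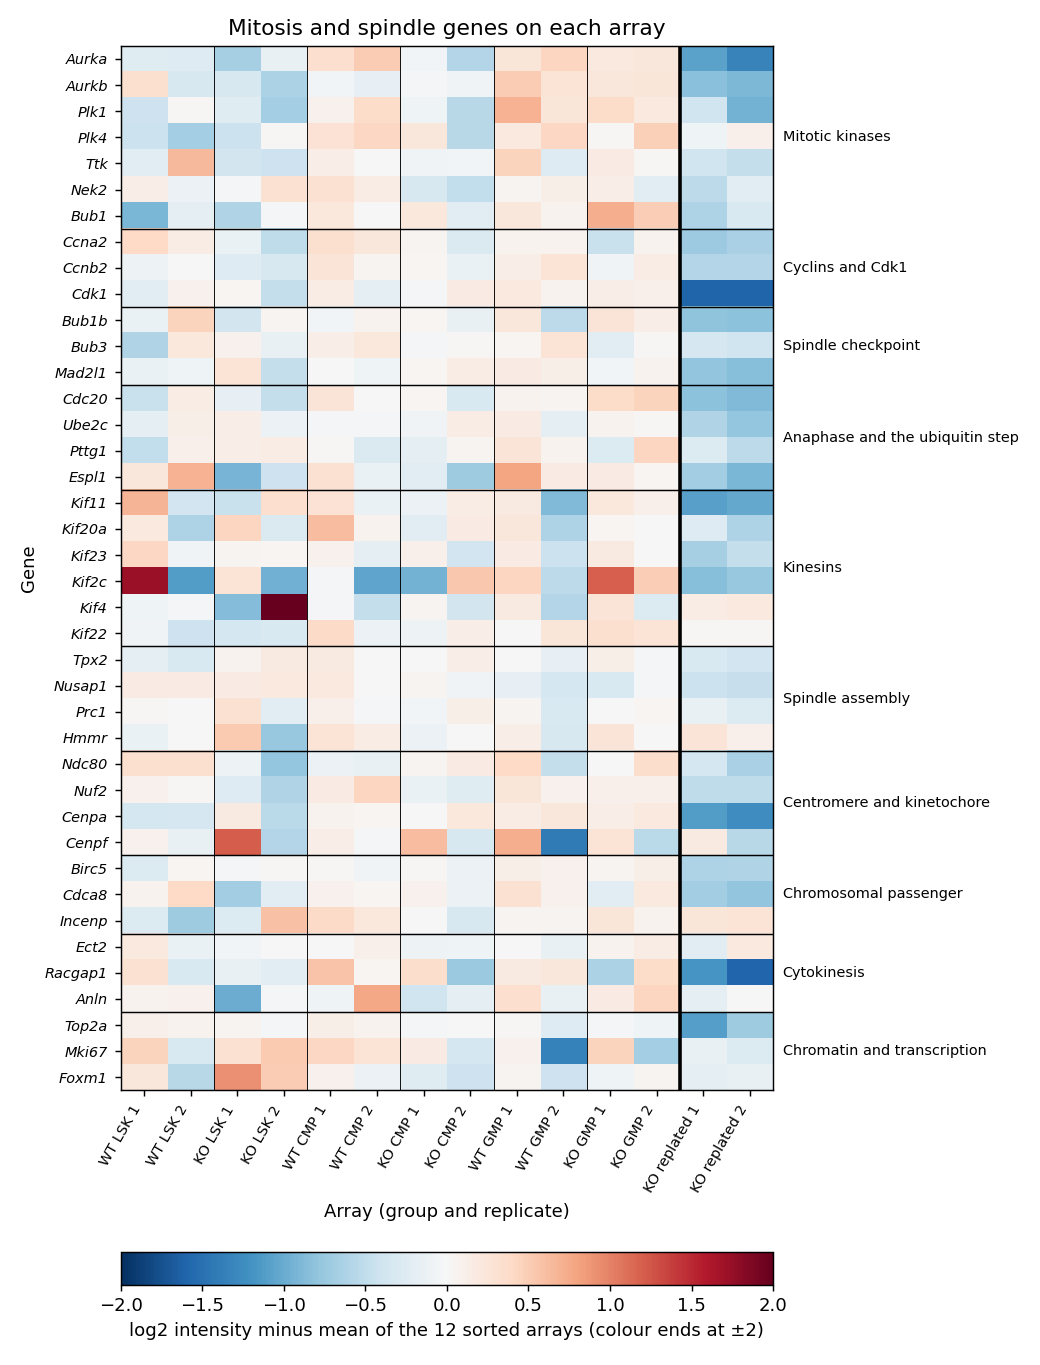
Heat map of the 40 genes (rows, by role) on the 14 arrays (columns, by group and replicate), as log2 intensity minus the gene's mean over the 12 arrays of sorted cells (red higher, blue lower, colours ending at 2 in each direction). The 2 replated columns are blue for most genes, deepest for Cdk1, while Kif2c, Kif4 and Cenpf differ most between arrays of 1 group.

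For 24 of the 40 genes the arrays of at least 1 sorted group differed by a larger fold than the 6 sorted group means did. The widest gaps between arrays were those of Kif4, Kif2c, Cenpf and Mki67. Kif2c, a kinesin that takes microtubules apart at their ends, read 1480 and 206 in WT LSK. Kif4, a chromosome-bound kinesin, read 41.6 and 353 in KO LSK. Cenpf, a large kinetochore protein, read 115 and 26 in WT GMP. Mki67, which codes for the Ki-67 protein that coats mitotic chromosomes and is a common stain for cycling cells, read 826 and 306 in WT GMP and 1060 and 487 in KO GMP. The group means of some genes lay close together. The means of the 6 sorted groups differed by at most 1.07-fold for Ube2c, 1.12-fold for Prc1, 1.15-fold for Ect2, 1.16-fold for Top2a and 1.17-fold for Birc5, in each case less than the arrays of at least 1 group (1.27, 1.43, 1.27, 1.23 and 1.24-fold). They differed most for Kif2c (2.62-fold), Bub1 (2.23-fold) and Espl1 (2.22-fold).

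The first comparison asked whether mitotic genes differ between sorted LSK, CMP and GMP cells. In WT cells 29 of the 40 genes were higher in CMP than in LSK, with a median log2 difference of 0.09, and none passed the test across all genes (limma, Benjamini-Hochberg adjusted p under 0.05), which called 1.53% of genes. From CMP to GMP the median was -0.08 and 0 of 40 passed, with 0.89% of all genes called. From LSK to GMP the median was 0.03 and again 0 of 40 passed, while 7.09% of all genes did. At an unadjusted p under 0.05 these steps held 4, 2 and 6 of the 40 genes, or 10%, 5% and 15%, against 11.9%, 9.62% and 20.7% of all genes. The members' share was thus below that of all genes at each WT step.

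The largest differences between WT populations were those of Mki67 (-0.97 ± 0.49 from CMP to GMP, adjusted p = 0.603), Plk4, and Kif2c (-0.85 ± 0.89 from LSK to CMP, adjusted p = 0.828), of which Mki67 and Kif2c varied widely between arrays. Plk4, which starts the copying of centrioles, read 656 and 553 in WT LSK, 1080 and 1180 in WT CMP and 1010 and 1180 in WT GMP. The WT arrays of LSK did not overlap those of CMP and GMP, yet the difference of 0.90 ± 0.27 (SE, n = 2 arrays a group here and below) from LSK to CMP had an adjusted p of 0.184. Other Plk4 probe sets differed in the same direction, by 0.58 and 1.38 from LSK to CMP and by 1.17 and 0.83 from LSK to GMP. Aurka, the Aurora kinase of the spindle poles, was 0.67 ± 0.22 higher in CMP (adjusted p = 0.228), and 0.13 higher on its other probe set. Incenp, the scaffold that holds Aurora B, was 0.79 ± 0.27 higher (adjusted p = 0.242), with its other probe sets at -0.10 to 0.52. Nusap1, which bundles spindle microtubules, went the other way and was 0.42 ± 0.14 lower in GMP than in LSK (adjusted p = 0.121). Cdk1 itself read 2460 and 3040 in WT LSK, 3200 and 2500 in WT CMP and 3280 and 3020 in WT GMP, so its WT groups overlapped.

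In KO cells the same steps gave medians of 0.06 from LSK to CMP, 0.14 from CMP to GMP and 0.17 from LSK to GMP. None of the 40 genes passed in any of these steps, in which 1.15%, 0.769% and 7.18% of all genes were called. From KO LSK to KO GMP 12 of the 40 genes (30%, against 20.9% of all genes) had an unadjusted p under 0.05, of which 10 were higher and 2 lower in GMP. The 5 of smallest adjusted p follow, and the other 5 higher ones were Aurka, Plk1, Ccnb2, Espl1 and Anln. Nuf2, an outer kinetochore protein that grips microtubules, was 0.54 ± 0.15 higher in GMP (adjusted p = 0.0726). Aurkb, the Aurora kinase that corrects faulty attachments, was 0.71 ± 0.21 higher (adjusted p = 0.0784). Cdc20, which switches on the anaphase-promoting complex, was 0.72 ± 0.22 higher (adjusted p = 0.0840). Kif22, a kinesin that pushes chromosome arms outward, was 0.63 ± 0.19 higher (adjusted p = 0.0909). Bub1, a checkpoint kinase, was 0.93 ± 0.29 higher (adjusted p = 0.0922), but its other probe set differed by -0.46 ± 0.66. Other probe sets differed by 0.89 for Aurkb, 0.53 and 0.96 for Cdc20 and 0.13 and 0.43 for Kif22. The 2 lower genes were Nusap1 (-0.34 ± 0.14) and Foxm1 (-0.73 ± 0.26), the latter a transcription factor for late cell cycle genes. Other probe sets above background differed by 0.34 for Nusap1 and by -1 and 0.78 for Foxm1. Without replicate 1 of KO LSK 3 of the 40 genes passed in this step, and without either WT LSK array 2 passed.

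**Figure D2:**
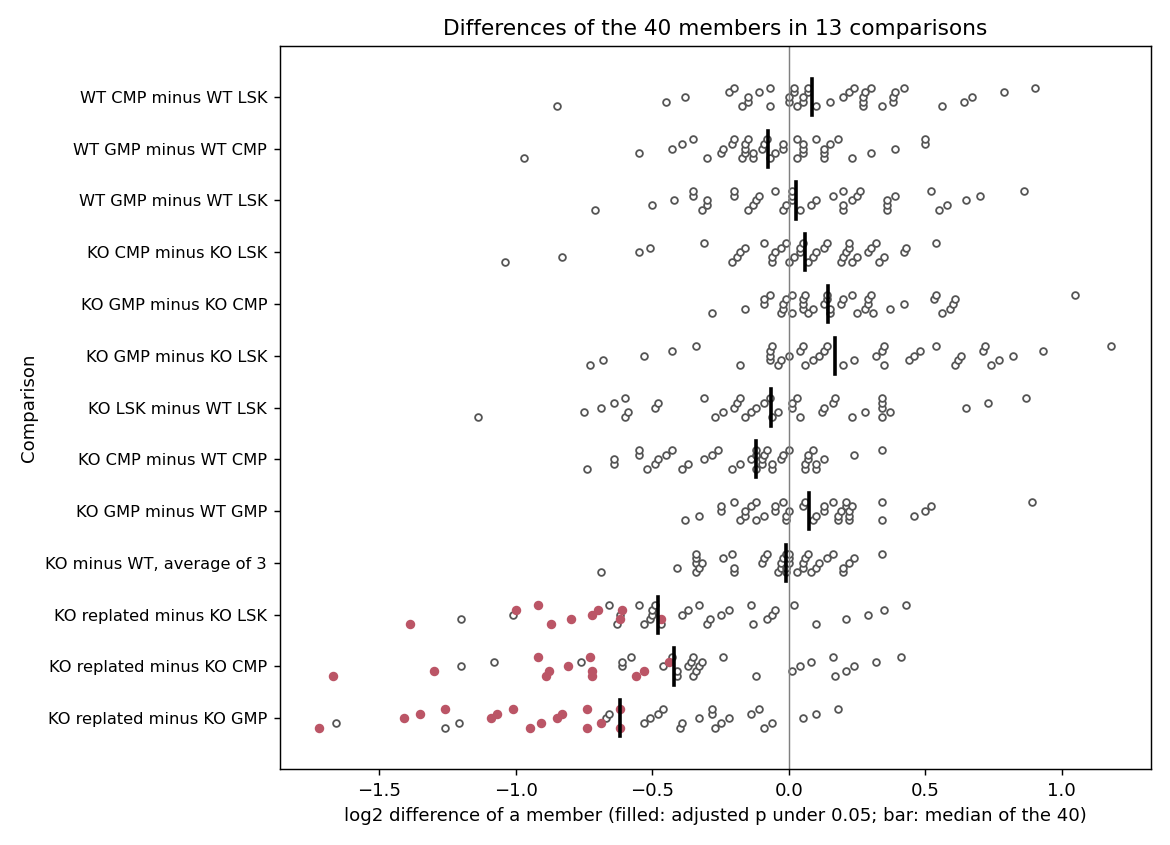
Log2 difference (horizontal axis) of each of the 40 genes in 13 comparisons (vertical axis), with filled points for adjusted p under 0.05 and a bar at the median of the 40. Points spread around 0 in the 10 comparisons of sorted cells with none filled, and the medians of the 3 replated comparisons lie at -0.48, -0.42 and -0.62.

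The second comparison asked whether loss of Tet2 alters these genes within a sorted population. Averaged over LSK, CMP and GMP, the median of the 40 genes was -0.01 and none passed, with 0.308% of all genes called. None passed within LSK (0.264% of genes called), CMP (0.121%) or GMP (0.0934%), where the medians were -0.06, -0.12 and 0.08. In the averaged comparison the 95% interval of 36 of the 40 genes lay inside a 2-fold difference in either direction, and 39 of the estimates lay within 1.5-fold. Cdk1 differed by -0.02 (95% interval -0.28 to 0.24), Top2a, the enzyme that untangles sister DNA, by -0.04 (-0.25 to 0.16) and Birc5, which codes for survivin of the chromosomal passenger complex, by 0.03 (-0.14 to 0.20). The interval of Mki67 was wider, from -0.50 to 0.78.

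Of the 6 genes with an unadjusted p under 0.05 in the averaged comparison (15%, against 9.11% of all genes), all were lower in KO cells. Espl1, which codes for separase, the protease that opens cohesin rings at anaphase, stood out by size. It read 104 and 144 in WT LSK against 46.4 and 66.3 in KO LSK, 109 and 80.8 in WT CMP against 76.4 and 54.3 in KO CMP, and 153 and 99.2 in WT GMP against 99.0 and 90.7 in KO GMP. The KO arrays lay below the WT arrays in every population, and the averaged difference was -0.69 ± 0.17 (adjusted p = 0.222). Ccna2, the cyclin of S phase and early mitosis, differed by -0.41 ± 0.12 (adjusted p = 0.305). Nuf2 differed by -0.34 ± 0.09 (adjusted p = 0.246), with arrays that did not overlap in LSK and CMP. The others were Aurka (-0.34 ± 0.13), Cdca8, a passenger protein that binds centromeres (-0.32 ± 0.12), and Ccnb2, a B-type cyclin (-0.20 ± 0.08). Other probe sets of these genes differed by 0.04 for Aurka, 0 and -0.11 for Cdca8 and -0.36 for Ccna2.

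Within LSK, Foxm1 read 117 and 68.3 in WT and 189 and 142 in KO, a difference of 0.87 ± 0.26 (adjusted p = 0.274). That was the largest positive difference there, next to the largest negative one, Espl1 at -1.14 ± 0.29 (adjusted p = 0.189). Other Foxm1 probe sets above background differed by 1.12 and -0.35. In CMP the largest was Aurka, which read 396 and 445 in WT and 303 and 208 in KO (-0.74 ± 0.22, adjusted p = 0.534). The other Aurka probe set differed by 0.14. Nek2, a kinase that separates centrosomes, followed at -0.64 ± 0.19 (adjusted p = 0.531). At an unadjusted p under 0.05 there were 9 of the 40 genes in LSK (22.5%, against 9.91% of all genes), 3 in CMP (7.5%, against 6.13%) and 0 in GMP (against 4.43%). Whether the KO effect differed between populations was tested directly. None of the 40 genes passed for CMP against LSK (0.022% of genes called), GMP against LSK (0.0055%) or GMP against CMP (0%). At an unadjusted p under 0.05 in limma, the tool run, CMP against LSK held 4 of the 40 genes (10%, against 6.69% of all genes). GMP against LSK held 0 (against 5.96%) and GMP against CMP 0 (against 3.73%). Foxm1 came nearest, with a KO effect in CMP minus that in LSK of -1.18 ± 0.37 (adjusted p = 0.549).

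The third comparison set the replated KO cells against each sorted KO population, and here mitotic genes fell. Against KO LSK 10 of the 40 genes fell and 0 rose, while 14.2% of all genes fell and 10.8% rose. Against KO CMP 12 fell and 0 rose, with 14.1% and 10.3% of all genes, and against KO GMP 16 fell and 0 rose, with 15.2% and 10.2%. The 3 comparisons share the 2 replated arrays, so they are not independent of each other. As shares of the set these falls were 25%, 30% and 40%. The median of the 40 genes was -0.48, -0.42 and -0.62, and that of all genes 0.01, -0.07 and -0.06. In bulk samples fewer dividing cells and less RNA per dividing cell cannot be told apart.

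These counts depended on single arrays. Against KO LSK the falls numbered 6 without replicate 1 of the replated cells and 4 without replicate 2, and without replicate 1 of KO LSK 7 fell and 1 rose. Against KO CMP they were 6 and 3 without these arrays and 5 without replicate 1 of KO CMP. Against KO GMP they were 10 and 8, and 7 without replicate 2 of KO GMP. With a fit to only the 4 arrays compared, 3 genes passed against KO LSK. The genes whose falls passed without each single array were Cdk1, Cenpa and Top2a in all 3 comparisons, Birc5 against KO LSK and KO GMP, and Aurka, Aurkb and Cdc20 against KO GMP. These hold for the chosen probe set of each gene. Every other fall of the 40 genes lost its call without at least 1 array, and the adjusted p it then reached is given with it.

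A simpler reading of the arrays needs no model. Both replated arrays lay below all 12 sorted arrays for 18 of the 40 genes, against 16.4% of all genes, and above them for 0, against 12.9%. The replated group had the lowest mean of the 7 groups for 28 of the 40 genes, and for 29.3% of all genes. Of the 18 genes, 15 had a promoter window, and 12 of these held both TTTGAA and CCAAT. Of the other 22 genes, 19 had a window and 11 of these held both.

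**Figure D3:**
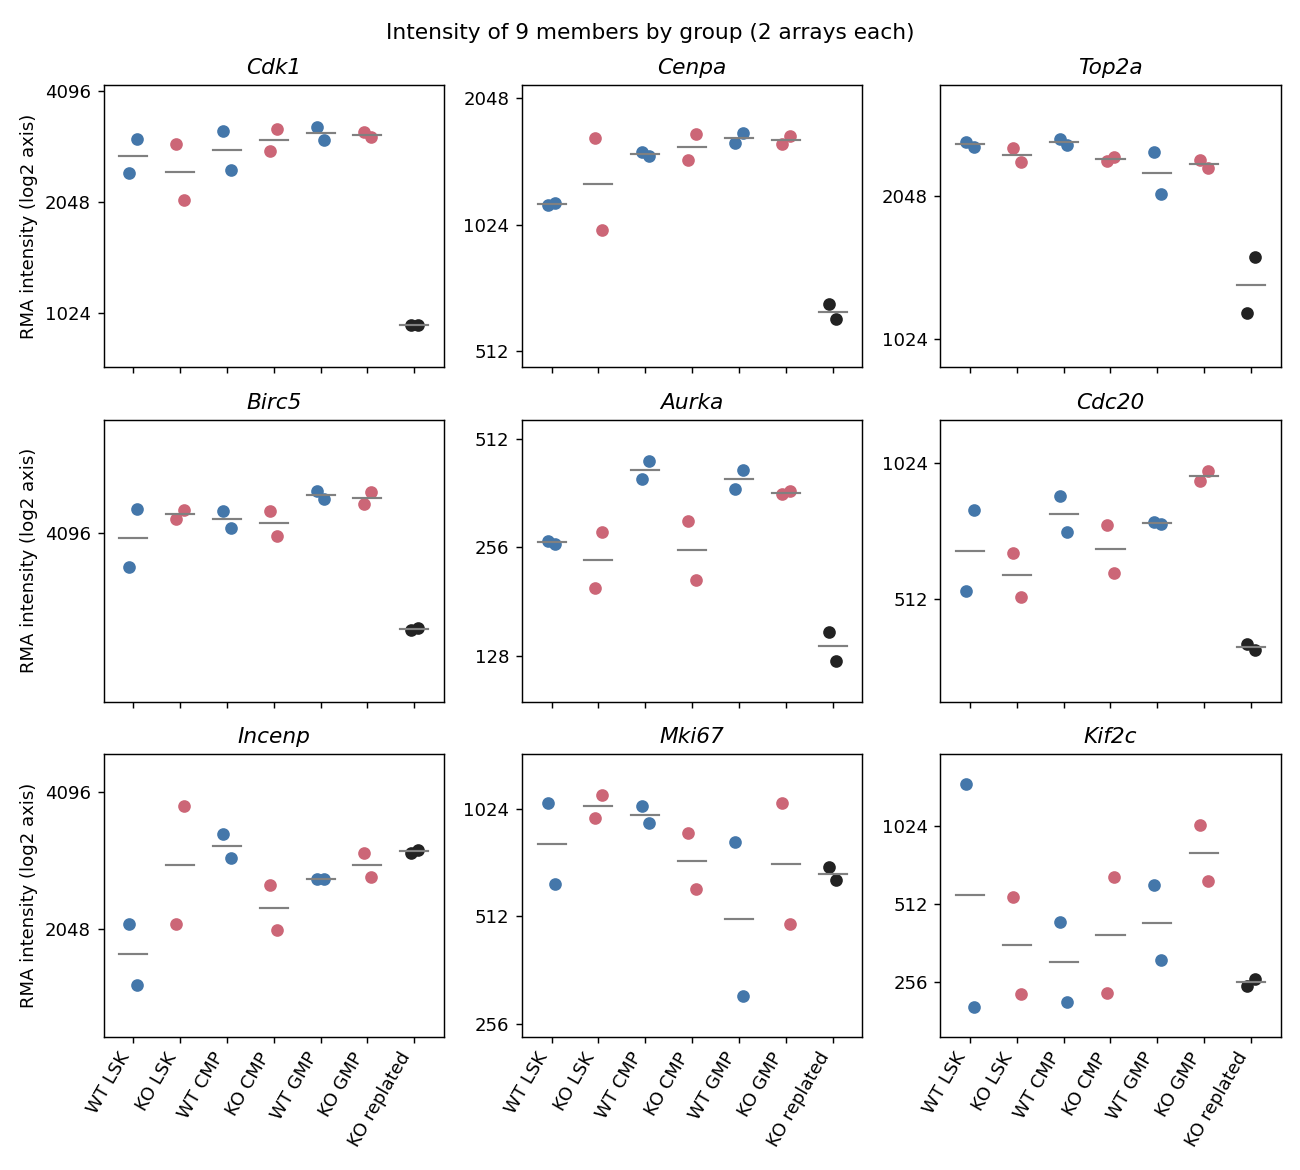
Intensity (vertical axis, log2 scale) of 9 genes in the 7 groups, with a point per array and a grey line at the mean of the log2 values (WT blue, sorted KO red, replated black). Cdk1 reads 2070 to 3280 in sorted and 945 to 947 in replated cells, whereas Incenp, Mki67 and Kif2c overlap between replated and sorted arrays.

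Cdk1, the kinase at the head of the pathway, fell most in each of the 3 comparisons. On the 12 sorted arrays it read from 2070 to 3280 with a median of 3030, and on the replated arrays 947 and 945. Within the sorted KO cells the readings were 2950 and 2070 in LSK, 2810 and 3240 in CMP and 3170 and 3080 in GMP. The replated arrays were close to each other and far below the lowest sorted array. The difference was -1.39 ± 0.20 from KO LSK (adjusted p = 0.000794), -1.67 ± 0.20 from KO CMP (adjusted p = 0.000253) and -1.72 ± 0.20 from KO GMP (adjusted p = 0.000198), a level 2.61, 3.19 and 3.30 times lower. It passed without each single array and under every other setting tried in these comparisons. Its cyclin partners moved less. Ccnb2 read 794 to 1190 in sorted cells and 658 and 657 in replated cells, and fell against KO CMP (-0.53 ± 0.14) and KO GMP (-0.62 ± 0.14). Ccna2 read 1330 and 1410 in replated cells, below its lowest sorted value of 1550, and its differences of -0.37 to -0.58 did not pass. Its second probe set differed by 0.22, -0.24 and -0.65 from KO LSK, CMP and GMP. The Ccnb2 calls were lost without replicate 1 of KO CMP (-0.45, adjusted p = 0.103) or either replated array, and without replicate 2 of KO GMP (-0.52, adjusted p = 0.0679).

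Among the kinases of the spindle, those of the Aurora family fell. Aurka read from 198 to 445 on the sorted arrays with a median of 329, and 149 and 124 on the replated arrays. Its KO readings were 198 and 282 in LSK, 303 and 208 in CMP and 359 and 366 in GMP. Its replated arrays lay below all others, and it fell by 0.80 ± 0.22 against KO LSK (adjusted p = 0.0253), by 0.88 ± 0.22 against KO CMP (adjusted p = 0.0158) and by 1.41 ± 0.22 against KO GMP (adjusted p = 0.00112). Another Aurka probe set, above background in all groups, did not move with it (0.18, -0.25 and -0.11), so the fall rests on 1 probe set. Aurkb read 700 to 1550 in sorted cells, with a median of 1060, and 612 and 585 in replated cells, against 1070 and 1030 in KO CMP and 1270 and 1280 in KO GMP. It fell against KO CMP (-0.81 ± 0.21) and KO GMP (-1.09 ± 0.21), and its other probe set differed by -0.92 and -1.27 there. The call of Aurka was lost against KO LSK without replicate 2 of KO LSK (-0.54, adjusted p = 0.145) or either replated array (adjusted p up to 0.16), and against KO CMP without replicate 1 of KO CMP (-0.61, adjusted p = 0.106) or replated replicate 2. That of Aurkb against KO CMP was lost without any of the 4 arrays compared (adjusted p up to 0.0956). Against KO LSK, which had the lowest sorted level of Aurkb on 1 array (874 and 700), the difference was -0.39 ± 0.21 and did not pass.

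Plk1, the Polo kinase that drives entry into mitosis and spindle assembly, and Bub1 fell against KO GMP, at -0.95 ± 0.28 and -1.07 ± 0.29. Plk1 read 142 and 97.5 in replated cells and 242 and 214 in KO GMP, with KO LSK (159 and 117) and KO CMP (177 and 127) overlapping the replated values. Another Bub1 probe set, above background in 6 of the 7 groups, differed by -3.51, -2.70 and -3.05. Bub1 lost its call without any of the 4 arrays compared (adjusted p up to 0.14), and Plk1 without either KO GMP array or replated replicate 2 (-0.68, adjusted p = 0.219). Ttk, the kinase that starts the spindle checkpoint, differed by -0.05 to -0.53 without passing. Nek2 differed by -0.51 ± 0.19 from KO LSK and 0.04 ± 0.19 from KO CMP. Plk4 read 828 and 944 in replated cells, within its sorted range of 553 to 1230.

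The spindle checkpoint delays anaphase while kinetochores are unattached, and Mad2l1, the MAD2 protein at its core, fell in each comparison. It read 1220 to 2040 on the sorted arrays with a median of 1720, and 979 and 936 on the replated arrays, below all sorted ones. The KO readings were 2040 and 1220 in LSK, 1740 and 1870 in CMP and 1630 and 1780 in GMP. The differences were -0.72 ± 0.21 from KO LSK (adjusted p = 0.0297), -0.92 ± 0.21 from KO CMP (adjusted p = 0.00957) and -0.83 ± 0.21 from KO GMP (adjusted p = 0.0148). Bub1b, which codes for its partner BubR1, read 265 and 262, below its lowest sorted value of 324, and fell against KO GMP (-1.01 ± 0.27, adjusted p = 0.0211). Its other 2 probe sets differed by -0.96, -0.88 and -1.12 and by -0.01, -0.12 and 0.02 against KO LSK, CMP and GMP, so the fall is not seen on all of them. Mad2l1 lost its call against KO LSK without replicate 1 of KO LSK (-0.35, adjusted p = 0.126) or either replated array (adjusted p up to 0.136). It was also lost against KO CMP without replicate 2 of KO CMP or of the replated cells (adjusted p up to 0.0614), and against KO GMP without any of the 4 arrays compared (adjusted p up to 0.0882), as was that of Bub1b (up to 0.107). Bub3, which brings Bub1 and BubR1 to kinetochores, differed by -0.27 to -0.36 and did not pass. Its other probe sets were mixed, from -1.06, -0.94 and -0.90 on 1 of them to 0.08, 0.44 and 1.08 on another.

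Of the genes that carry a cell into anaphase, Ube2c and Cdc20 act on the anaphase-promoting complex, Pttg1 codes for securin and Espl1 for separase. Ube2c, the enzyme that hands ubiquitin to the complex, read 2820 to 3640 in sorted cells, with a median of 3230, and 2130 and 1890 in replated cells. Its groups did not overlap, and it fell by 0.70 ± 0.17, 0.73 ± 0.17 and 0.74 ± 0.17 against KO LSK, CMP and GMP (adjusted p = 0.0160, 0.0129 and 0.0112). Cdc20 read 517 to 981 in sorted cells, with a median of 748, and 407 and 393 in replated cells, with 647 and 517 in KO LSK and 745 and 583 in KO CMP. It fell against KO CMP (-0.72 ± 0.22) and by the most against KO GMP (-1.26 ± 0.22, adjusted p = 0.00210), the population in which it was highest (931 and 981). Its other 2 probe sets were lower too, at -1.58 and -1.59 against KO GMP and -1.05 and -0.63 against KO LSK. Espl1, already low in KO LSK, read 54.6 and 46.9 in replated cells and fell against KO GMP (-0.91 ± 0.29, adjusted p = 0.0492). Without replated replicate 2 the calls of Ube2c were lost in each comparison (adjusted p = 0.11, 0.0936 and 0.0828), as they were without KO LSK replicate 1, KO CMP replicate 2 or either KO GMP array. Those of Cdc20 against KO CMP (adjusted p up to 0.194 without KO CMP replicate 1) and Espl1 against KO GMP (up to 0.22 without replated replicate 2) were lost without 7 and 6 of the 14 arrays in turn. Pttg1 read 1700 and 1420, overlapping its sorted range of 1460 to 2750, and its differences of -0.34 to -0.55 did not pass.

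Spindle motors behaved less evenly, and none of the 6 kinesins passed in any of the 3 comparisons. Kif11, the motor that pushes the spindle poles apart, read 512 to 1510 in sorted cells and 446 and 463 in replated cells. Its replated arrays were the lowest of all, but its spread was wide and its differences of -1.01 ± 0.43, -1.08 ± 0.43 and -1.21 ± 0.43 had adjusted p-values of 0.127, 0.104 and 0.0683. Its other 2 probe sets differed by -0.88, -0.39 and -1.27 and by -0.11, -0.41 and -0.96. Kif23, the motor of the central spindle, read 213 and 243 below a sorted minimum of 252 (-0.62 ± 0.25, -0.43 ± 0.25 and -0.66 ± 0.25), and its other probe set above background differed by -1, -0.80 and -1.37. Kif20a, needed for cytokinesis, differed by -0.41 to -0.50. Kif22 differed by 0.35 ± 0.19, 0.01 ± 0.19 and -0.28 ± 0.19, while its other 2 probe sets were at -0.49 to -0.62 and -0.48 to -0.91. Kif4 and Kif2c had errors of 0.77 and 0.89, too wide for a direction.

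Among proteins that bind spindle microtubules, Tpx2, which activates Aurora A on the spindle, read 2530 to 3540 in sorted cells and 2530 and 2380 in replated cells. It fell against KO LSK by 0.47 ± 0.13 (adjusted p = 0.0287), and its differences of -0.41 ± 0.13 and -0.40 ± 0.13 from KO CMP and KO GMP did not pass (adjusted p = 0.0531 and 0.0569). The Tpx2 call does not extend to its other probe set above background, which differed by 0.13, 0.61 and 0.43. Nusap1 read 1980 to 2870 in sorted cells and 1870 and 1830 in replated cells, and fell against KO LSK (-0.62 ± 0.14) and KO CMP (-0.44 ± 0.14). Its second probe set differed by -2.12, -1.93 and -2.46, a larger size in the same direction. The Tpx2 call was lost without any of the 4 arrays compared (adjusted p up to 0.149). That of Nusap1 against KO LSK was lost without replated replicate 2 (adjusted p = 0.0602) and that against KO CMP without 12 of the 14 arrays in turn (up to 0.184). Prc1, which crosslinks the central spindle, differed by -0.22 to -0.25, and Hmmr, a protein of spindle poles, by 0.05 to 0.29, without passing. Other Hmmr probe sets ranged from -0.93 to 0.70.

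At the centromere, Cenpa, the histone variant that marks where a kinetochore forms, had the second largest fall, among genes that passed, against KO LSK and KO CMP. It read 992 to 1690 on the sorted arrays with a median of 1550, and 664 and 610 on the replated arrays. The KO readings were 1640 and 992 in LSK, 1460 and 1680 in CMP and 1590 and 1660 in GMP. The groups did not overlap, and the differences were -1 ± 0.21 from KO LSK (adjusted p = 0.00620), -1.30 ± 0.21 from KO CMP (adjusted p = 0.00146) and -1.35 ± 0.21 from KO GMP (adjusted p = 0.00107). Without replicate 1 of KO LSK, the higher of the pair, the difference from KO LSK was -0.64 (adjusted p = 0.0174). Its other 2 probe sets differed in the same direction with wider errors, by -0.14 to -1.17 and by -1.27 to -2.25. Nuf2 read 440 and 444 in replated cells, which lay between the KO LSK arrays (527 and 413), and fell against KO GMP (-0.62 ± 0.15, adjusted p = 0.0153). That call was lost without any of the 4 arrays compared (adjusted p up to 0.0758). Its partner Ndc80 read 132 and 107 and differed by -0.06, -0.61 and -0.67 (SE 0.30) without passing. Cenpf had an error of 0.74 and did not pass.

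The chromosomal passenger complex carries Aurora B from centromeres to the midzone, and its members differed. Birc5 read 3610 to 4770 in sorted cells, with a median of 4440, and 2860 and 2890 in replated cells. It fell by 0.61 ± 0.13, 0.56 ± 0.13 and 0.69 ± 0.13 against KO LSK, CMP and GMP (adjusted p = 0.00841, 0.0130 and 0.00385). Cdca8 read 1850 and 1730 in replated cells, with KO LSK 1 also at 1850, and fell against KO CMP (-0.72 ± 0.21) and KO GMP (-0.74 ± 0.21). Against KO LSK it differed by -0.29 ± 0.21 and did not pass. Other Cdca8 probe sets differed by -0.93, -1.15 and -1.25 and by -0.36, -0.82 and -1.06 against KO LSK, CMP and GMP. The calls lost here were those of Birc5 against KO CMP without replicate 1 of KO CMP (adjusted p = 0.0737) or either replated array, of Cdca8 against KO CMP without any of the 4 arrays (up to 0.151), and of Cdca8 against KO GMP without KO GMP replicate 2 (-0.53, adjusted p = 0.198) or either replated array. Incenp read 3010 and 3060, inside its sorted range of 1550 to 3810, and differed by 0.10 to 0.41 without passing. Among genes of cytokinesis, Racgap1, which switches the division-site GTPase, read 334 to 826 in sorted cells and 245 and 185 in replated cells. It had differences of -1.20 ± 0.42, -1.20 ± 0.42 and -1.26 ± 0.42 that did not pass (adjusted p = 0.0659, 0.0678 and 0.0550), and another probe set differed by -0.11, -0.23 and -0.71. Ect2, which activates the same GTPase, and Anln, a scaffold of the contractile ring, differed by -0.11 to 0.08 and by -0.39 to 0.43.

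Top2a read 2070 to 2700 on the sorted arrays with a median of 2510, and 1160 and 1520 on the replated arrays. The KO readings were 2590 and 2420 in LSK, 2430 and 2480 in CMP and 2440 and 2350 in GMP. Both replated arrays lay below all sorted ones, with differences of -0.92 ± 0.16, -0.89 ± 0.16 and -0.85 ± 0.16 from KO LSK, CMP and GMP (adjusted p = 0.00208, 0.00259 and 0.00305). Another Top2a probe set above background in all groups differed by 0.46, -1.15 and -0.70 (SE 0.56), so it was higher against KO LSK, and the remaining one lay at background. With all of them averaged the difference was -0.17 from KO LSK (adjusted p = 0.615) and -0.49 from KO GMP (adjusted p = 0.105), and neither passed. Foxm1 read 88.9 and 90.4 in replated cells and 68.3 to 189 in sorted cells with a median of 98.8. It fell against KO LSK (-0.87 ± 0.26, adjusted p = 0.0387), where it read 189 and 142, but differed by 0.16 ± 0.26 from KO CMP (84.7 and 75.6) and -0.14 ± 0.26 from KO GMP (94 and 104). Its other 2 probe sets above background differed by -1.23, 0.25 and -0.22 and by -0.08, -0.40 and -0.86. That call was lost without 9 of the 14 arrays in turn, KO LSK replicate 1 among them (-0.67, adjusted p = 0.197). Mki67 read 701 and 646, within its sorted range of 306 to 1120. Its differences were -0.63 ± 0.49, -0.12 ± 0.49 and -0.09 ± 0.49. The 95% intervals against KO CMP and KO GMP (-1.22 to 0.99 and -1.20 to 1.01) include a 2-fold lower level, and that against KO GMP also a 2-fold higher one.

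**Figure D4:**
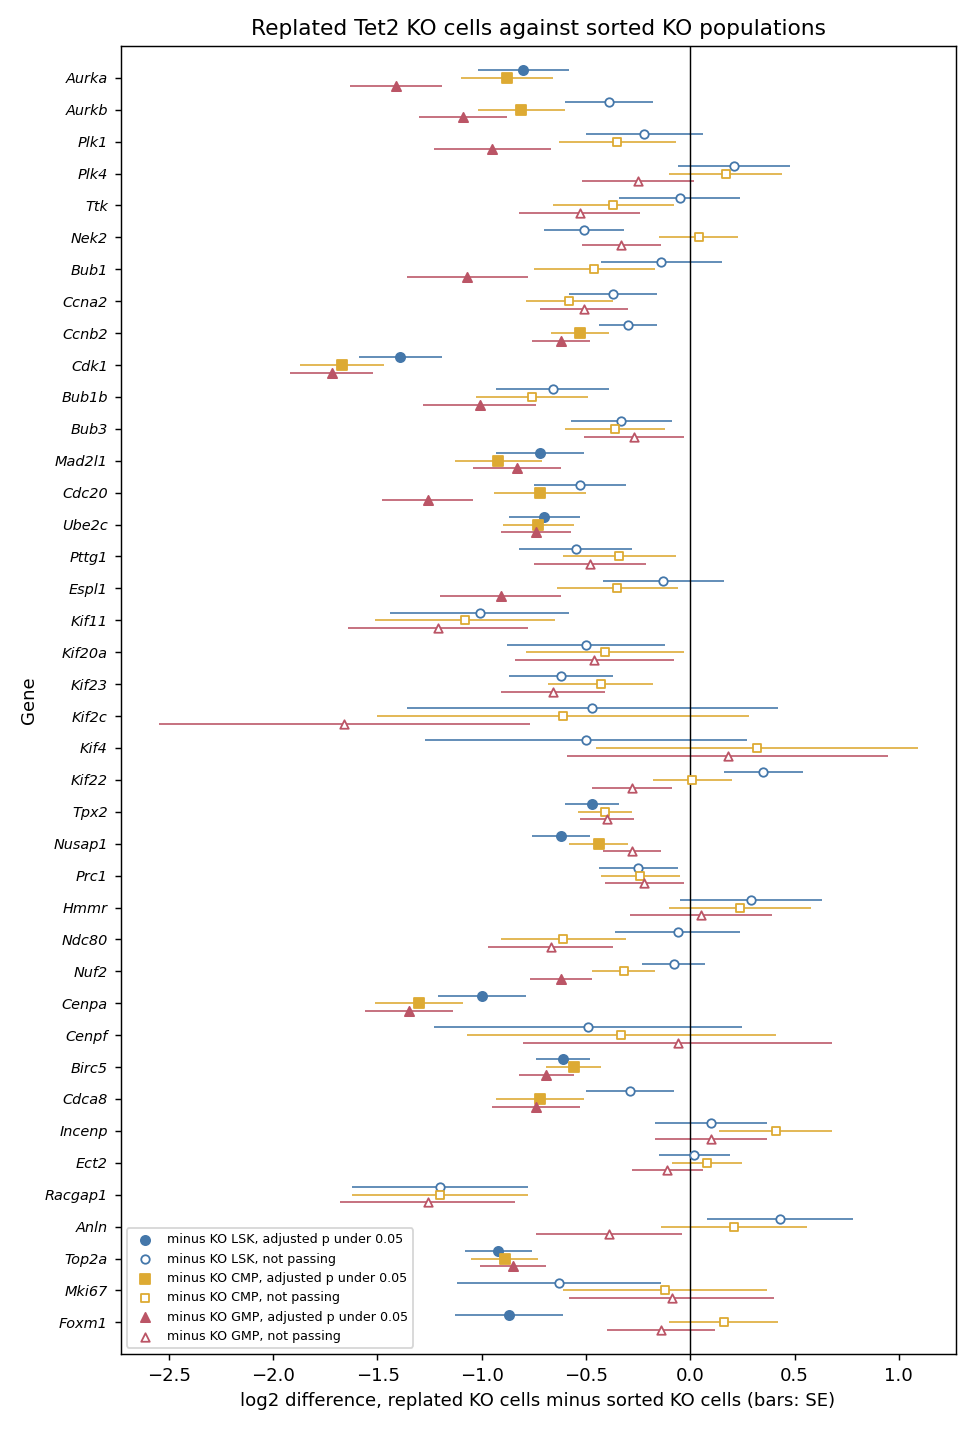
Log2 difference of each of the 40 genes (vertical axis, by role) between replated KO cells and sorted KO LSK (circles), CMP (squares) and GMP (triangles), with SE bars and filled symbols for adjusted p under 0.05. Filled symbols lie only to the left of 0, from Cdk1 at -1.72 to Nusap1 at -0.44, and the kinesins and cytokinesis genes have none.

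Other genes of mitosis and of cell cycle control were read in the same comparisons. They came from 6 lists with 126 measured genes, which include DREAM, E2F and G1 genes. In replated cells 38 fell and 4 rose against KO LSK, 44 fell and 5 rose against KO CMP, and 50 fell and 4 rose against KO GMP, or 30.2%, 34.9% and 39.7% that fell. Of all genes 14.2%, 14.1% and 15.2% fell and 10.8%, 10.3% and 10.2% rose. Of 30 other kinetochore genes 9, 15 and 17 fell. Nsl1, of the MIS12 complex that links centromere and microtubule, averaged 135 in replated cells and differed by -2.59 ± 0.24, -3.24 ± 0.24 and -3.36 ± 0.24, while Mis12 of the same complex rose by 0.90 ± 0.18, 0.60 ± 0.18 and 0.72 ± 0.18. Cenpp, a centromere protein, had the smallest p of the list against KO LSK (-2 ± 0.17). Of 20 condensin and cohesin genes 5, 9 and 7 fell, among them Ncapd2, a condensin subunit, by 1.12 ± 0.20, 1.10 ± 0.20 and 1.38 ± 0.20. Pds5b, a cohesin regulator, had the smallest p against KO LSK (-1 ± 0.17) and Cdca5, which holds cohesin on DNA, against KO CMP (-2.32 ± 0.37). Of 17 genes of the anaphase-promoting complex 6, 4 and 5 fell, with Ube2s, which extends ubiquitin chains, at -1.21 ± 0.24, -1.29 ± 0.24 and -1.47 ± 0.24. The complex's subunits Anapc7 (-1.15 ± 0.21 against KO LSK) and Anapc5 (-0.86 ± 0.15 against KO CMP) had the smallest p there.

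Of 32 other spindle and cytokinesis genes 9, 8 and 11 fell, led by Haus1, of the augmin complex that branches spindle microtubules, at -1.47 ± 0.15, -2.01 ± 0.15 and -2.25 ± 0.15. The regulators that time these genes moved both ways. Of 18 DREAM and E2F genes 6, 4 and 5 fell, and 3, 2 and 2 rose. Rb1 and Rbl2, pocket proteins that repress cell cycle genes, rose: Rb1 by 2.36 ± 0.25, 1.52 ± 0.25 and 1.41 ± 0.25, and Rbl2 by 1.91 ± 0.22, 1.83 ± 0.22 and 1.85 ± 0.22. Rbl1, of the same family, fell by 0.73 ± 0.15, 0.78 ± 0.15 and 0.83 ± 0.15. Of 9 cyclins and kinases of G1, 3, 4 and 5 fell, with Cdk4 at -1.15 ± 0.16, -1.51 ± 0.16 and -1.52 ± 0.16. In the averaged KO minus WT comparison of sorted cells 0 of the 126 genes passed, and 11 (8.73%, against 9.11% of all genes) had an unadjusted p under 0.05 in limma.

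Markers of cell type moved with the replated group. The 9 mast cell and basophil genes were all above background there, with a summed intensity of 75200 to 76800 against 7140 to 10600 on the sorted KO arrays. Among them Cpa3, a mast cell protease, averaged 13800 and Fcer1a, of the IgE receptor, 14200. Hdc and Mcpt8 of this list averaged 909 and 491, below their means in KO GMP (1490 and 936). The 7 myeloid progenitor genes summed to 9330 to 10000 against 21700 to 54200, with Mpo, Elane, Prtn3 and Ctsg at or below background on both replated arrays. Cd34 and Fcgr3 of this list stayed high, at 4090 against 4510 to 5240 and at 5360 against 392 to 3690. Kit averaged 5230 against 1420 to 2280. Lists for stem and LSK cells (6 genes, 3730 to 4100 against 1220 to 11600), erythroid cells (5 genes, 1040 to 1250 against 3730 to 8020), megakaryocytes (5 genes, 3560 to 3620 against 1700 to 4740), B cells (4 genes, 76.7 to 77.7 against 739 to 2050), T cells (2 genes, 31.8 to 41.1 against 37.0 to 229) and monocytes and macrophages (4 genes, 100 to 110 against 372 to 3240) were also read. Of their genes Procr, Hba-a1, Selp, Ms4a1, Ebf1, Cd3g, Csf1r, Cd14 and Adgre1 were at or below background on both replated arrays. Hba-a1 was so in every group, Cd3g in every group but KO LSK, and Adgre1 in WT LSK, KO LSK and WT CMP also. Ms4a1 was so in every WT group and Procr in WT GMP. Some other genes of these lists were higher than in all sorted KO groups, with Itga2b at 1790 against 190 to 502 and Vwf at 1620 against 57.7 to 136. Pf4 and Gp1bb, also of the megakaryocyte list, were lower, at 140 against 995 to 2080 and 19.6 against 73.0 to 273. In the stem and LSK list Hlf and Flt3 were lower, at 36.5 against 295 to 3820 and 26.9 against 278 to 1210. Mecom averaged 2970, within the 497 to 4060 of the sorted KO groups. Slamf1 and Meis1 both averaged 427, within 106 to 454 and 74.5 to 703. The part of these differences in cell type, and of culture, in the lower level of the mitotic genes was not tested.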

How the data were processed

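RNA of 14 samples was amplified, labelled and hybridised to Affymetrix Mouse 430 2.0 arrays, per the labels' protocols. The deposited values are probe-set intensity values on a linear scale, and RMA is the method that the submitters' processing notes name for how the authors made them. Its software version is not given here. RMA normalizes between arrays, which can hide a shift shared by most genes. Log2 was taken, with no further scaling.

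The file holds 45101 probe sets, of which 34958 name 1 gene in the platform annotation, 932 several and 9211 none. Probe sets naming 1 gene were used, and each gene was read from the one with the highest mean, leaving 18194 genes. Of the 40 members 27 had several probe sets.

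Samples were grouped by their titles. The tests used limma 3.58.1, R 4.3.3 and the data.table package (version 1.17.8), in 1 model of 7 group means over 14 arrays (7 residual and 2.19 prior degrees of freedom), two-sided, with Benjamini-Hochberg adjustment over 18194 genes and a threshold of 0.05. Errors are moderated SEs. The number of arrays limits the precision. The fit was tested on simulated data. No slide or scan date was used. The members, gene lists and marker lists were chosen with earlier results of these data known. Members were named by role, with the largest and smallest differences of each role and KO array values for the 5 largest falls of a comparison, and the gene of smallest p in each other list. Others were chosen after their values were seen. Alternatives changed the arrays fitted, the replicate block, an offset of 16, quantile normalization, the filter, the probe set rule and the eBayes options. Promoter windows came from RefSeq (GRCm38.p6).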

Additional observations from a re-analysis of the deposited data

How the results depend on the processing

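In the 10 comparisons of sorted cells and 3 tests of differing KO effects, 0 of the 40 genes passed, with these exceptions. With the mean of all probe sets of a gene 1 gene passed in WT CMP against LSK and 1 in WT GMP against LSK, and with 16 added before log2 1 passed in KO GMP against LSK. Leaving out 1 array gave 0 to 1 genes in WT GMP against LSK, 0 to 1 in KO CMP against LSK, 0 to 3 in KO GMP against LSK and 0 to 1 in KO against WT LSK. In replated cells leaving out 1 array gave 4 to 10 genes against KO LSK (1 of them a rise without replicate 1 of KO LSK), 3 to 12 against KO CMP and 7 to 17 against KO GMP. Of the genes called in full, those that passed without each single array were Birc5, Cdk1, Cenpa and Top2a against KO LSK (4 of 10), Cdk1, Cenpa and Top2a against KO CMP (3 of 12) and Aurka, Aurkb, Birc5, Cdc20, Cdk1, Cenpa and Top2a against KO GMP (7 of 16). With only the 4 arrays compared 3 genes passed against KO LSK, 2 of them among the 10. Tpx2 against KO LSK reversed with the mean of all probe sets, to 0.16, and 2 of its probe sets lay at background in every group. A fit without the 4 LSK arrays, added after seeing the data, gave 13 genes against KO CMP and 17 against KO GMP. With the replicate block 10 genes passed against KO LSK, 10 against KO CMP and 16 against KO GMP, and 0 in the other comparisons. The numbers did not pair the samples: deviations of same-numbered arrays correlated at -0.10 to 0.10 over 21 pairs of groups.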
